A study of Homo sapiens with 2 samples.

Results

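The genes described here encode the machinery that imports proteins into mitochondria. Members were every gene whose symbol begins with TIMM or TOMM followed by a digit, together with GRPEL1, GRPEL2, PAM16, DNAJC19, PMPCA, PMPCB, MIPEP, SAMM50, MTX1, MTX2, CHCHD4 and GFER, with pseudogenes left out. This gave 35 genes of the 25277 rows listed for each sample. They were placed in TOM (10 genes), TIM23 with its motor (10 genes), the small TIM proteins (6 genes), TIM22 (1 gene), SAM (3 genes), the processing peptidases (3 genes) and the disulfide relay MIA (2 genes).

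Poly(A) RNA was sequenced from 2 cultures of HEK293, a human embryonic kidney cell line, both at passage 15 to 20. One culture was wild type (WT), and in the other PERK had been knocked out with CRISPR/Cas9 (PERK-KO) in cells that the study derived as clones. PERK, encoded by EIF2AK3, is an ER membrane kinase that slows translation during ER stress, and the study compared the genotypes while oxidative phosphorylation (OXPHOS) was being activated. By the study's methods, both genotypes were kept for 12 h in OXPHOS medium, which supplies galactose in place of glucose. Each genotype was represented by 1 sample, so no replicate error and no p-value could be given. A clone, its passage history and its library cannot be told apart from the genotype.

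Values are FPKM, fragments scaled for transcript length and for the number of mapped fragments, each with a lower and an upper confidence limit. The scaling for length is meant to make levels comparable between genes. Differences between these 2 samples still went together with transcript length, as given below, which limits comparisons between short and long transcripts. The limits cover the counting and assignment error of a single library, not the spread between cultures. A gene was called lower or higher in PERK-KO when the ratio of its FPKM values passed 1.5-fold. All 35 members reached 1 FPKM in WT or PERK-KO, as did the 14594 genes tested in this way. The counting interval given with a log2 fold change was computed from the deposited limits, read as 2 standard errors on either side of the FPKM. Because RNA was measured in bulk, fewer cells expressing a gene and less RNA per cell cannot be told apart.

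Most mitochondrial proteins are made in the cytosol and enter through the TOM complex of the outer membrane, which has receptors, a channel and small stabilizing subunits. Proteins with a presequence then pass through TIM23 in the inner membrane and are pulled into the matrix by an ATP-driven motor, where peptidases cut the presequence off. Carriers of the inner membrane are escorted by small TIM chaperones to TIM22, beta-barrel proteins are inserted into the outer membrane by SAM, and cysteine-rich proteins of the intermembrane space are folded by the CHCHD4 and GFER relay. PERK bears on the same machinery, since the TIMM17A protein is known to be lost when translation is slowed through the kinase's substrate eIF2α.

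Transcription of many nuclear genes for mitochondria is driven by ETS-family factors such as GABPA, and by NRF1 and YY1. Promoters of 300 bases (250 before and 50 after the start) from RefSeq on GRCh38.p14 were found for 32 of the 35 members, and not for TOMM5, TIMM8B and GRPEL1. Each was searched on both strands for CCGGAAG, the ETS core. The letters occurred in 13 of 32 member promoters (40.6%), against 10.7% of 27305 promoters in the table and 18.97% of the 10750 belonging to tested genes. The 150 bases before the start of 4 members are printed because they hold these letters (in capitals, on either strand) while their genes differed in opposite directions between the samples. TIMM10 and TIMM13 were lower in PERK-KO, and TOMM20 and GRPEL2 had higher values there with separate confidence limits. On GRCh38.p14 the stretches lie at chr11:57530755-57530904 (minus strand), chr19:2427587-2427736 (minus strand), chr1:235128838-235128987 (minus strand) and chr5:149345349-149345498 (plus strand), in this order, and are written 5′ to 3′ in the direction of transcription.
TIMM10: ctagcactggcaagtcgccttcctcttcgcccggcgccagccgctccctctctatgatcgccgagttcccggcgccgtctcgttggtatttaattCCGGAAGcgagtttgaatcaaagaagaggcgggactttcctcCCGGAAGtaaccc
TIMM13: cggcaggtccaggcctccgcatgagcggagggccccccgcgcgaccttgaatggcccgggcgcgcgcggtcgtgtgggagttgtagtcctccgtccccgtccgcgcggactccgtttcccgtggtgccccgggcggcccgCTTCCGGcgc
TOMM20: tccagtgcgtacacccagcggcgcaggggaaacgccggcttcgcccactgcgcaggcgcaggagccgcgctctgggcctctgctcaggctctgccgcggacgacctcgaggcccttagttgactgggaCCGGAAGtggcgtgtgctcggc
GRPEL2: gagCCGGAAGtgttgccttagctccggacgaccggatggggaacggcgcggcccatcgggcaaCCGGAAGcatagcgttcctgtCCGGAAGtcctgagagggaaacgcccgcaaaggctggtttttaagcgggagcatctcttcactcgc

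The TIMM10 stretch held 2 matches, those of TIMM13 and TOMM20 held 1 each, and that of GRPEL2 held 3. Over all members, the 13 with the ETS letters had a median log2 fold change of −0.05 (range −0.61 to 0.45), and the 19 without them −0.17 (range −0.83 to 0.69). Past 1.5-fold, 2 of the 13 and 2 of the 19 were lower and 0 and 1 were higher, while 7.54% and 10.1% of tested genes were. The NRF1 letters GCGCATGC were in 5 promoters (15.6%, against 5.38% of tested genes), those of TOMM7, PAM16, TIMM10B, TIMM9 and CHCHD4. These 5 members had a median log2 fold change of −0.05 (range −0.83 to 0.10), and the 27 without the letters −0.11. The YY1 letters AAGATGGCG were in 3 (9.38%, against 3.90%). TGACGTCA, the cAMP response element, was in 0 of 32 (3.27% of tested genes), and TGATGNAAT, a composite read by ATF4 and CHOP downstream of PERK, was in 1, PMPCB, against 0.419%. A match describes letters and not a bound site.

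EIF2AK3 itself (chr2:88856259-88927094 on hg19, the build of all gene positions from here on) was listed at 5.61 FPKM (limits 5.11 to 6.12) in WT and 3.89 FPKM (3.44 to 4.34) in PERK-KO. Its mRNA had a lower value in the library labelled PERK-KO, short of 1.5-fold (log2 fold change −0.53, counting interval −0.74 to −0.32). The mRNA was still present, and PERK protein was not measured here. Of 6 genes associated with HEK293, 3 reached 1 FPKM in WT and 5 in PERK-KO. VIM was at 418 FPKM in WT and 378 in PERK-KO and NEFL at 44.9 and 33.4, while NEFM was at 0.662 and 5.21, INA at 0.458 and 4.13, LIN28B at 4.16 and 7.05 and PAX2 at 0.981 and 0.748. The samples therefore differed in both directions in these markers, and the part of this difference in the import genes was not tested. Of 7 kidney tubule and podocyte markers, 5 were listed at 0 in both samples. NPHS1 was at 1.18 FPKM in WT and 1.10 in PERK-KO, and AQP1 at 0.355 and 0.912. The tubule and podocyte programs that the tissue label could imply were therefore largely not detected. Blood, fibroblast and adipocyte lists likewise had 1 gene each that reached 1 FPKM in either sample.

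The import genes had a slightly lower median in PERK-KO, with large differences among subunits of the same complex. The lower median went together with short transcripts: it moved from −0.11 to −0.01, and 0 members were lower past 1.5-fold, when the median of tested genes of like length was subtracted. The share of tested genes past 1.5-fold after this subtraction was not computed. Summed FPKM of the 35 members was 2605 in WT and 2169 in PERK-KO, a ratio of 0.833, and the sum over all tested genes had a ratio of 0.869. The median log2 fold change of members was −0.11 (middle 50% of members −0.38 to 0.10), and that of all tested genes was 0.04. Past 1.5-fold, 5 of 35 members (14.3%) were lower, TOMM7, TIMM10, TIMM13, PAM16 and TOMM5, while 7.54% of tested genes were. Higher past 1.5-fold was 1 of 35 (2.86%), TOMM20L, while 10.1% of tested genes were.

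Confidence limits that did not overlap between the samples, a different criterion that TOMM20L did not meet, were found in 20 members. Of these, 15 (42.9%) were lower in PERK-KO, against a background of 18.7%, and 5 (14.3%) were higher, against 26.1%. The 5 were TIMM17A, TOMM20, GRPEL2, TOMM70A and TIMM44. In the other 15 members the limits overlapped.

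**Figure D1:**
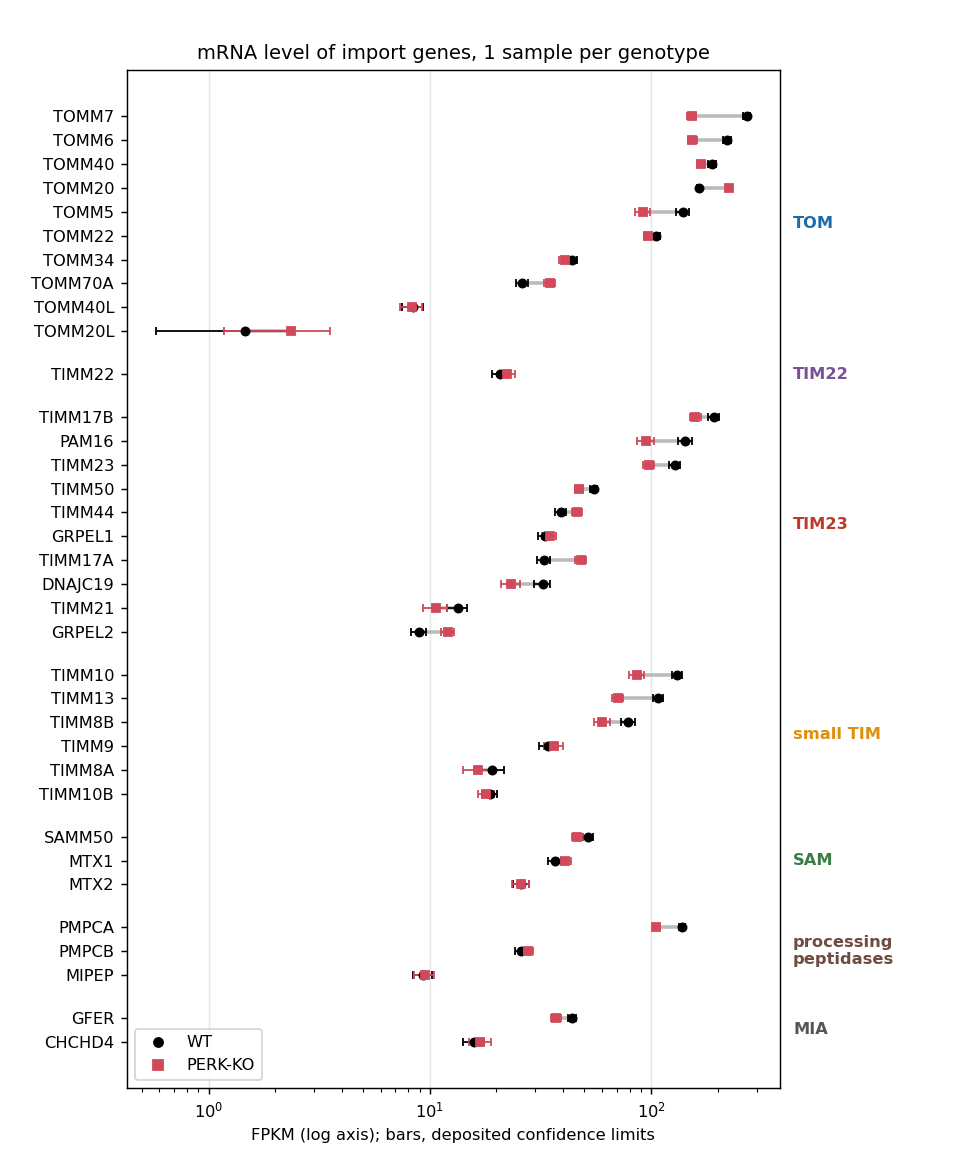
FPKM (log axis) of the 35 members in WT (black circles) and PERK-KO (red squares), 1 sample each, with the deposited confidence limits as bars, by part of the machinery and in order of the WT level. TOMM7 was the most abundant member in WT at 271 FPKM, and TOMM20 the most abundant in PERK-KO at 225 FPKM.

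The clearest pattern within TOM was a split between its small subunits and 2 of its 3 receptors. TOMM5, TOMM6 and TOMM7 are short membrane proteins that hold the TOM channel together. TOMM7 (chr7:22852251-22862471) was at 271 FPKM in WT (limits 262 to 281) and 153 in PERK-KO (145 to 160). This was the largest difference of any member toward lower values, with a log2 fold change of −0.83 (counting interval −0.92 to −0.74). TOMM5 (chr9:37588412-37592636) went from 139 FPKM (130 to 148) to 92.1 (84.8 to 99.3), giving a log2 fold change of −0.59 (−0.74 to −0.45). TOMM6 (chr6:41755181-41757634) fell just short of the threshold, at 221 FPKM (212 to 229) and 154 (147 to 161), with WT 1.43 times PERK-KO where TOMM5 had 1.51. No limits of these 3 genes overlapped between samples, and their summed FPKM was 631 in WT and 398 in PERK-KO, a ratio of 0.632. Their transcripts are short (434 to 706 bases), and tested genes under 1000 bases had a median log2 fold change of −0.39.

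The receptors recognize incoming proteins on the cytosolic side. TOMM20 (chr1:235272658-235292256), which binds presequences, was at 165 FPKM in WT (162 to 169) and 225 in PERK-KO (221 to 229), giving a log2 fold change of 0.45 (0.41 to 0.48). TOMM70A, now named TOMM70, which receives carrier precursors from chaperones, was at 26.1 FPKM (24.6 to 27.7) in WT and 34.9 (32.9 to 36.9) in PERK-KO, which gave a log2 fold change of 0.42 (0.30 to 0.54). TOMM22, the central receptor, did not share this direction, with 105 FPKM (101 to 109) and 97.1 (92.7 to 101), limits that overlapped. The summed FPKM of the receptors was 297 in WT and 357 in PERK-KO, a difference that came mostly from TOMM20.

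TOMM40 forms the channel through which nearly all imported proteins pass. It was at 188 FPKM (181 to 196) in WT and 168 (161 to 175) in PERK-KO, a log2 fold change of −0.17 (−0.25 to −0.08). Its paralog TOMM40L was far less abundant, at 8.38 and 8.31 FPKM with overlapping limits. TOMM34, a cytosolic co-chaperone of precursors, was at 44.1 and 40.8 FPKM, also overlapping. TOMM20L, a paralog of TOMM20, was listed at 1.46 FPKM (0.582 to 2.33) and 2.36 FPKM (1.18 to 3.53). The limits of TOMM20L correspond to only 11.1 and 16.1 fragments, and its counting interval of −0.43 to 1.82 included no change, so a difference was not detectable at this depth. Its locus also overlaps that of TIMM9.

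The order of the TOM genes by level differed between the samples. In WT the order was TOMM7, TOMM6, TOMM40, TOMM20, TOMM5, TOMM22, TOMM34, TOMM70A, TOMM40L and TOMM20L, and no neighbors had overlapping limits. In PERK-KO TOMM20 came first, followed by TOMM40, TOMM6, TOMM7, TOMM22 and TOMM5. There the limits of TOMM40 and TOMM6, of TOMM6 and TOMM7, and of TOMM22 and TOMM5 overlapped, so those neighbors were not separated. TOMM20 made up 14.1% of the summed TOM FPKM in WT and 23.1% in PERK-KO, and TOMM7 made up 23.2% and 15.6%. The level of TOMM20 was 0.609 times that of TOMM7 in WT and 1.48 times in PERK-KO, and their log2 fold changes differed by 1.28 (1.18 to 1.37). Tested genes of like length had medians of 0.08 for TOMM20 and −0.40 for TOMM7, so part of this gap went together with transcript length.

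**Figure D2:**
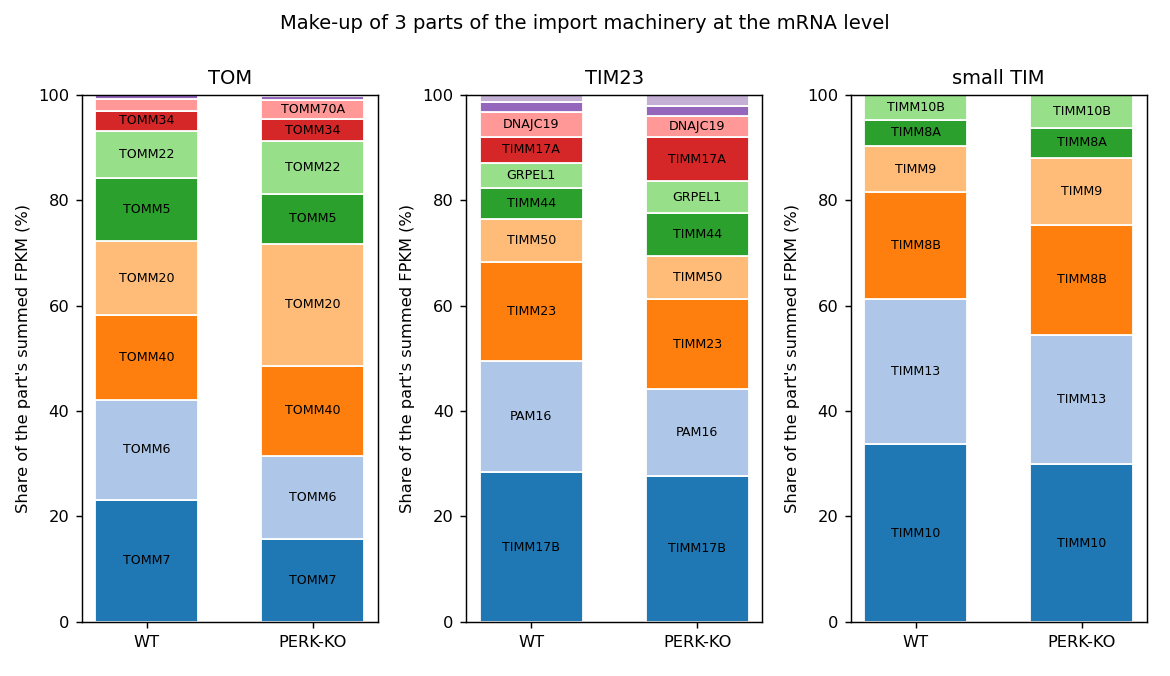
Share of each gene in the summed FPKM of TOM, TIM23 and the small TIM proteins (percent), with 1 stacked bar per sample; the thinnest segments carry no name. The TOMM20 segment grows from 14.1% to 23.1% of TOM, and that of TIMM17A is wider in PERK-KO than in WT.

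In TIM23, most channel genes had lower values in PERK-KO and TIMM17A had a higher value, none of them past 1.5-fold. TIMM17A and TIMM17B encode alternative forms of the same channel-associated subunit. TIMM17A (chr1:201924619-201939789) was at 32.7 FPKM (30.6 to 34.9) in WT and 48.2 (45.4 to 50.9) in PERK-KO. Its log2 fold change of 0.56 (0.43 to 0.68) was the largest toward higher values among members with separate limits. TIMM17B (chrX:48750730-48755426) was at 192 FPKM (182 to 202) and 159 (149 to 168), giving a log2 fold change of −0.27 (−0.39 to −0.16). The difference between the paralogs was 0.83 on the log2 scale (0.66 to 1.002), and TIMM17A made up 14.6% of the pair in WT and 23.3% in PERK-KO. TIMM17B was the more abundant paralog in both samples.

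TIMM23, the partner of TIMM17 in the channel, was at 128 FPKM (121 to 135) and 97.7 (91.8 to 104), giving a log2 fold change of −0.39 (−0.50 to −0.27). A near-identical gene, TIMM23B, is annotated in GENCODE but not among the listed rows, so the reads of both may be combined in the TIMM23 value. TIMM50, which receives presequences as they leave TOM, was at 55.1 FPKM (53.0 to 57.2) and 47.3 (45.2 to 49.4). TIMM21, which links TIM23 to TOM and to the respiratory chain, was at 13.3 and 10.7 FPKM with overlapping limits. Of the 5 membrane genes, 4 had lower values in PERK-KO, as did 6767 of 14594 tested genes, and 3 were lower with separate limits, while 18.7% of tested genes were. Their median log2 fold change was −0.27. After the running median over transcript length was subtracted, TIMM17B stood at 0.10, and the median of the 10 TIM23 genes moved from −0.25 to −0.028.

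The motor genes were split. PAM16 (chr16:4390252-4401373), a J-like protein that holds the motor's J protein in check, was at 143 FPKM (133 to 154) in WT and 94.5 (86.01 to 103) in PERK-KO, a log2 fold change of −0.60 (−0.77 to −0.43). Its locus overlaps the readthrough gene CORO7-PAM16, and fragments of both cannot be told apart with certainty. DNAJC19, the human homolog of the motor's J protein, was at 32.3 FPKM (29.7 to 34.9) and 23.2 (21.0 to 25.5), and 9 annotated pseudogenes carry its name. TIMM44, the scaffold that docks the motor on the channel, instead had a higher value in PERK-KO, short of 1.5-fold. It was at 39.0 FPKM (36.9 to 41.1) and 46.1 (43.7 to 48.5), giving a log2 fold change of 0.24 (0.13 to 0.35). The log2 fold changes of TIMM44 and PAM16 differed by 0.84 (0.64 to 1.04), where tested genes of like length had medians of −0.11 and −0.42.

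GRPEL1 and GRPEL2 are the nucleotide exchange factors of mitochondrial HSP70. GRPEL2 (chr5:148724977-148734146) was at 8.91 FPKM (8.23 to 9.59) in WT and 12.04 (11.2 to 12.9) in PERK-KO, a log2 fold change of 0.43 (0.29 to 0.58). GRPEL1 was at 33.2 and 34.8 FPKM with overlapping limits. The paralogs differed by 0.37 on the log2 scale (0.16 to 0.57), and GRPEL2 made up 21.2% of the pair in WT and 25.7% in PERK-KO. HSPA9, the mitochondrial HSP70 that drives the motor and is not a member by the rule, was at 105 and 109 FPKM with overlapping limits.

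The small TIM genes had the lowest summed ratio of the parts with more than 1 gene, 389 FPKM in WT and 288 in PERK-KO (0.740). These chaperones work as rings of TIMM9 with TIMM10, or of TIMM8A with TIMM13. TIMM10 (chr11:57295936-57298232) was at 131 FPKM (124 to 139) in WT and 86.2 (79.7 to 92.6) in PERK-KO, a log2 fold change of −0.61 (−0.74 to −0.47). TIMM13 (chr19:2425622-2427875) was at 107 FPKM (102 to 113) and 70.6 (66.4 to 74.8), also −0.61 (−0.72 to −0.49). Its limits correspond to 1442 and 1122 fragments, a smaller fall than in FPKM. The FPKM of 1 such fragment in PERK-KO was 0.845 times that in WT, the lowest ratio of any member. Over 13792 genes above 1 FPKM in both samples, the median of this ratio was 1.14. Its part in the TIMM13 difference was not tested, and the TIMM13 locus overlaps that of TMPRSS9. TIMM8B was at 78.7 FPKM (72.9 to 84.4) and 60.3 (55.2 to 65.5), with separate limits. TIMM10 and TIMM8B have transcripts of 668 and 780 bases, again in the class with a median of −0.39 over tested genes, and TIMM13 has one of 1664 bases, in the class with −0.17.

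Their ring partners did not show the same difference in FPKM. TIMM9 was at 34.2 FPKM (31.1 to 37.4) and 36.4 (33.0 to 39.9), and TIMM8A at 19.2 (16.8 to 21.6) and 16.6 (14.1 to 19.1), both with overlapping limits. The log2 fold change of TIMM9 was 0.70 above that of TIMM10 (0.46 to 0.93), and that of TIMM8A was 0.39 above that of TIMM13 (0.09 to 0.70). However, the limits of TIMM8A correspond to 254 fragments in WT and 178 in PERK-KO, and those of TIMM13 to 1442 and 1122. By these fragments TIMM8A did not fall less than TIMM13, so the second contrast holds for FPKM only. TIMM8A and TIMM8B differed by 0.17, with an interval (−0.15 to 0.50) that included no difference. TIMM10B, which tethers the ring to TIM22, was at 18.7 and 18.03 FPKM. TIMM22, the channel that takes the carriers from the small TIM proteins, was at 20.8 FPKM (19.1 to 22.5) and 22.5 (20.6 to 24.3), with overlapping limits.

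**Figure D3:**
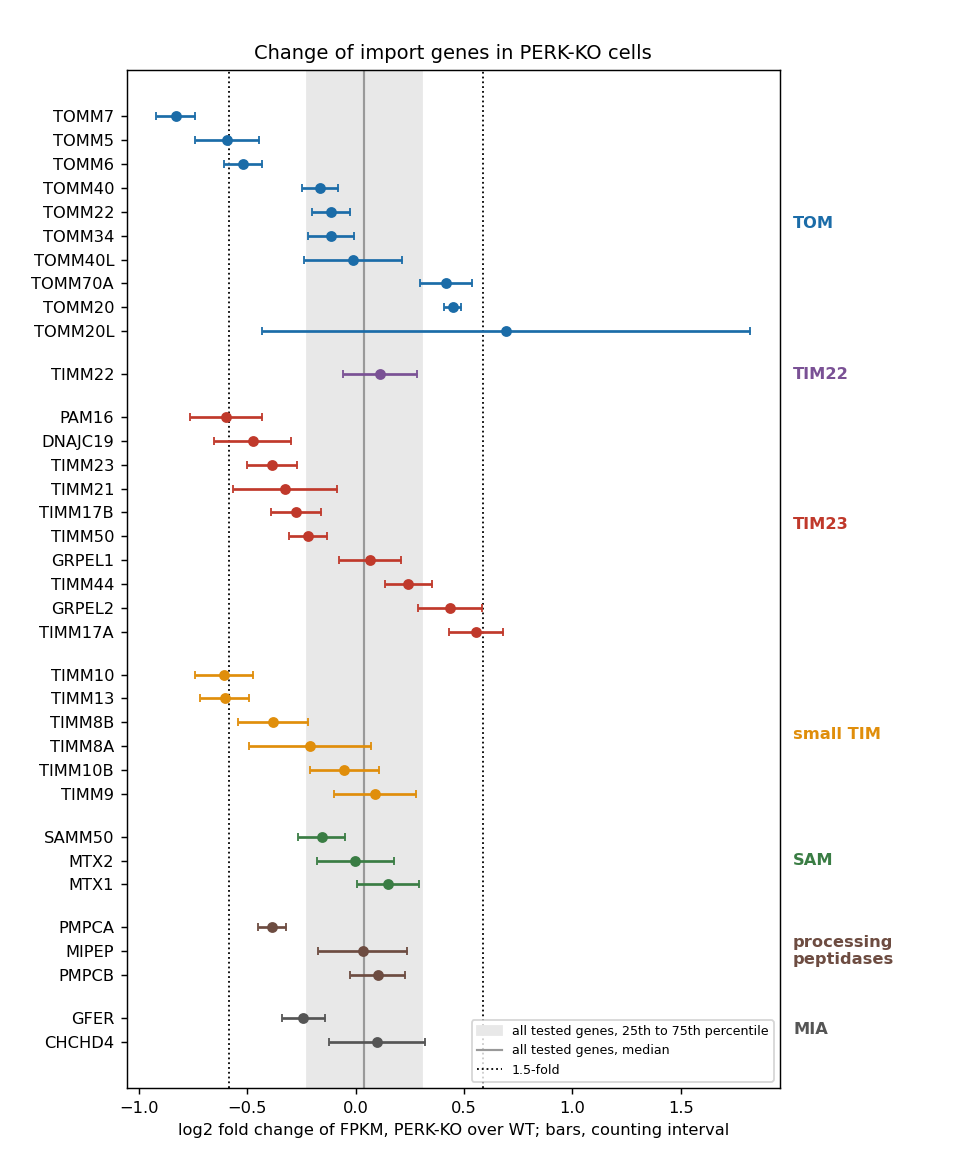
Log2 fold change of FPKM, PERK-KO over WT, for each member, with its counting interval as a bar and colors by part; the grey band and line give the middle 50% and the median of all tested genes, and dotted lines mark 1.5-fold. Left of the dotted line lie TOMM7, TIMM10, TIMM13, PAM16 and TOMM5, while TOMM20L lies to the right with an interval of −0.43 to 1.82.

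The SAM genes had the smallest difference in sum, 115 FPKM in WT and 113 in PERK-KO. SAMM50, the beta-barrel insertase, was at 51.8 FPKM (49.2 to 54.4) and 46.5 (43.9 to 49.1), giving a log2 fold change of −0.16 (−0.26 to −0.05) with limits that were just separate. Of its cytosolic partners, MTX1 was at 36.7 and 40.7 FPKM and MTX2 at 26.0 and 25.9, with overlapping limits, and their log2 fold changes differed by 0.15 (−0.08 to 0.38).

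The subunits of the presequence peptidase did not share a direction. PMPCA, the substrate-binding subunit, was at 138 FPKM (134 to 142) in WT and 106 (102 to 109) in PERK-KO, a log2 fold change of −0.39 (−0.45 to −0.32). PMPCB, the catalytic subunit, was at 25.8 (24.2 to 27.4) and 27.7 (25.9 to 29.4), with overlapping limits. The level of PMPCA was 5.36 times that of PMPCB in WT and 3.82 times in PERK-KO, although the proteins form a dimer. MIPEP, which trims some precursors further, was at 9.27 and 9.48 FPKM. In the disulfide relay, the sulfhydryl oxidase gene GFER was at 44.01 FPKM (42.0 to 46.0) and 37.2 (35.2 to 39.2), and the receptor gene CHCHD4 was at 15.8 and 16.9, with overlapping limits.

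Set side by side, the median log2 fold changes were −0.11 for TOM, −0.25 for TIM23, −0.30 for the small TIM proteins, −0.07 for MIA, −0.003 for SAM, 0.03 for the peptidases and 0.11 for TIMM22 alone. Within TOM the range was −0.83 to 0.69, and within TIM23 −0.60 to 0.56, wider than the gap between any of these medians.

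Transcript length went together with these differences. Among all tested genes, those with a canonical transcript under 1000 bases had a median log2 fold change of −0.39, those of 1000 to 2000 bases −0.17, those of 2000 to 4000 bases 0.02 and those of 4000 bases or more 0.23. The members in the same bins had medians of −0.56 (8 genes), −0.11 (13 genes), −0.01 (11 genes) and 0.42 (3 genes). Of the 8 members under 1000 bases, 4 were lower past 1.5-fold (50%), while 28.4% of tested genes of that length were. TOMM7 (434 bases), PAM16 (533), TOMM6 (565), TIMM10 (668) and TOMM5 (706) were all in this bin, whereas TOMM20 had 3283 bases, GRPEL2 4020 and TOMM70A 4100. TIMM50, the longest member at 5037 bases, went against this pattern, with a log2 fold change of −0.22 (−0.31 to −0.13). Across members, Spearman's rho of length with log2 fold change was 0.50 (n = 35), and across tested genes it was 0.45 (n = 13494); genes of 1 library pair are not independent.

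When the running median over 500 genes of like length was subtracted, the median of members moved from −0.11 to −0.01, with 19 below 0 and 16 above. No member was then lower past 1.5-fold, a count without a background, since the share of tested genes was computed only before the subtraction. TIMM13 (1664 bases) was the lowest at −0.45, followed by TOMM7 at −0.43 and TIMM50 at −0.41, while TIMM10 was at −0.18, PAM16 at −0.17, TOMM5 at −0.19 and TOMM6 at −0.09. TIMM17A (1650 bases) stood at 0.71, further from 0 than before, and TOMM20 at 0.37, TIMM44 at 0.35, GRPEL2 at 0.30 and TOMM70A at 0.28 kept their direction. TIMM17B moved from −0.27 to 0.10. The part that RNA integrity, library size selection or the genotype had in the length pattern was not tested.

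**Figure D4:**
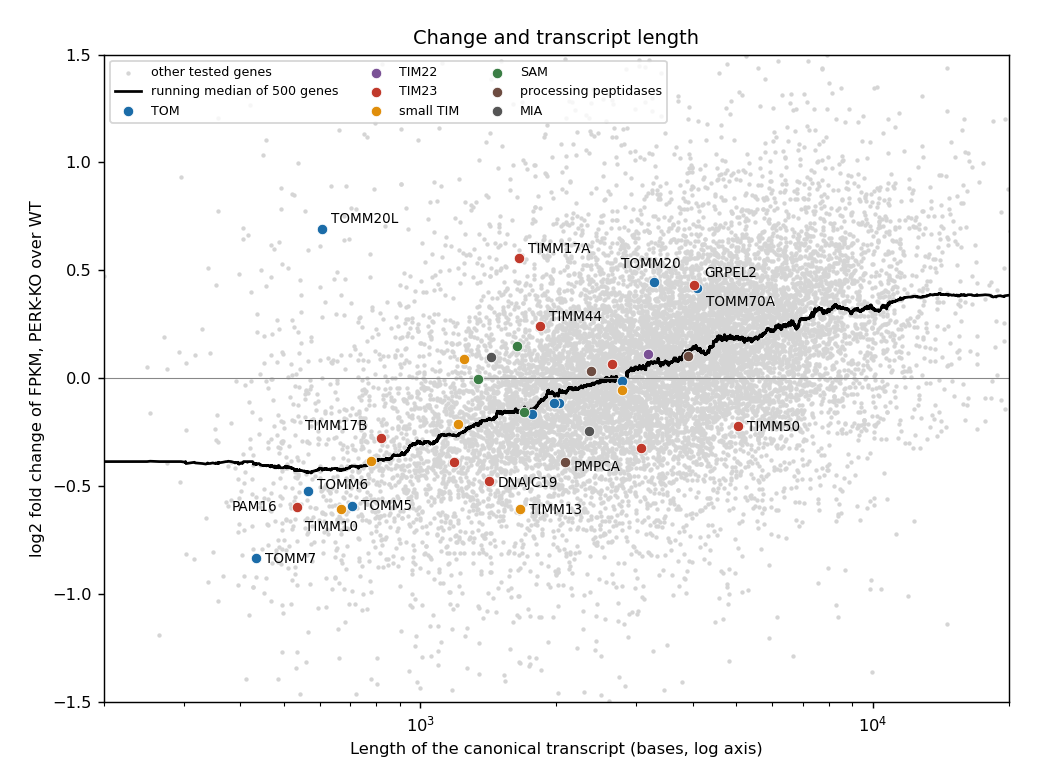
Log2 fold change of FPKM, PERK-KO over WT, against the length of the canonical transcript in bases (log axis), for tested genes (grey), their running median over 500 genes (black line) and the members (colored by part); 167 of 13494 genes lie outside the axes. TOMM7, PAM16, TOMM6, TIMM10 and TOMM5 lie at the short end below 0, and TIMM17A lies 0.71 above the line.

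Of 19 other genes that act with the import machinery, 4 were lower past 1.5-fold and 0 were higher, while 7.54% and 10.1% of all tested genes were. ROMO1, a small inner membrane protein tied to TIM23 function, was at 515 FPKM in WT and 272 in PERK-KO, a log2 fold change of −0.92 (−1.05 to −0.79), and its transcript has only 366 bases. HSPE1, the HSP10 co-chaperonin, was at 162 and 103 FPKM (−0.66), with a transcript of 557 bases. Of tested genes under 1000 bases, 28.4% were lower past 1.5-fold. DNLZ, which keeps mitochondrial HSP70 soluble, was at 120 and 67.8 FPKM (−0.82), and IMMP2L, an inner membrane peptidase subunit, was at 7.63 and 4.13 (−0.88). The GENCODE canonical transcripts of DNLZ and IMMP2L are longer, with 3096 and 2130 bases. Whether the transcripts behind their FPKM have these lengths was not tested, so these 2 genes cannot be placed outside the length pattern. The largest difference toward higher values was that of OXA1L, the insertase for proteins made inside mitochondria, at 50.02 and 68.6 FPKM (0.45). C19orf52, now named TIMM29, was not a member because the rule went by the listed symbol. It was at 32.2 FPKM in WT and 25.2 in PERK-KO (−0.35), with separate limits. In all, 9 of the 19 had values below 0 and 10 above, with a median of 0.02.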

How the data were processed

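The authors deposited 1 table of FPKM per gene and sample, with lower and upper confidence limits. Per the labels, reads were handled with TopHat2 2.0.13 and Cufflinks 2.2.1 on hg19. Read counts were not used here. From the deposited FPKM, log2 ratios of PERK-KO over WT were computed without a pseudocount with Python 3.11.15, numpy 2.4.6 and pandas 2.3.3, over main-chromosome genes reaching 1 FPKM in WT or PERK-KO. The threshold of 1.5-fold is the round number beside the study's 1.49. With 1 sample per genotype no test was run.

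Any member could be named, with full values for those past 1.5-fold, for the extremes and most abundant gene of each part and for paralogs. Members and lists were chosen with earlier results of these data known. Transcript lengths came from GENCODE 44 (GRCh37), found for 35 of 35 members and 92.6% of tested genes. The limits of a member correspond to a median of 947 fragments in WT and 815 in PERK-KO. On simulated data with counting noise only, 100% of 200 genes with a 3-fold change and at least 100 fragments were recovered. No member reached 2-fold, so this recovery does not bear on calls near 1.5-fold. The simulation held no spread between cultures and no length pattern. Alternative filters, pseudocounts, scalings and thresholds, and the subtraction of running medians, were tried. Protein features were not analysed here.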

Additional observations from a re-analysis of the deposited data

How the results depend on the processing

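No paired analysis was possible because each genotype has 1 sample, and no replicate could be left out. The count of 5 lower members became 0 at 2-fold, 0 after the running median over transcript length was subtracted, and 0 after a running median over the FPKM of 1 fragment, an alternative chosen after seeing the data. The count of 1 higher member was 0 with an FPKM of at least 10, 0 with a pseudocount of 1, 0 at 2-fold, 0 where the counting interval had to exclude no change, and 2 under each running median (TIMM17A and TOMM20L). Shares of all tested genes under these alternatives were not computed. Subtracting the running median over length and over the FPKM of 1 fragment moved the TIM23 median from −0.25 to −0.028 and 0.019, and that of the small TIM proteins from −0.30 to −0.026 and −0.057. The SAM median moved to 0.22 with the first. The peptidase median was −0.14 with an FPKM of at least 10, which leaves out MIPEP. Without its most abundant member, the log2 ratio of summed FPKM was −0.13 for TOM (−0.26 with it), 0.083 for the peptidases (−0.28) and 0.10 for MIA (−0.14). The median of members moved from −0.11 to −0.012 and −0.011 under the running medians, and that of TOM from −0.11 to −0.031 and −0.022. These shifts took away most of each median, although they were less than the typical counting interval of a single member. That interval does not measure the error of a median. Values near 0 changed sign in other cases: the peptidase median (0.032) was −0.029 and −0.011 under the running medians and −0.0069 when rescaled by the median, the MIA median was 0.040 over length, the SAM median was 0.13 over the FPKM of 1 fragment, and the SAM sum was 0.088 without SAMM50 (−0.018 with it). Rescaling shifted all log2 fold changes by 0.04 or less. Subtracting the running median over length turned the sign of TIMM8B, MTX2, PMPCB, TIMM17B and TIMM8A. A value for 3 fragments, the lowest taken as detectable, ranged from 0.0386 to 0.580 FPKM over members in WT. The cause of these movements was not tested.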
